A study of Mus musculus with 6 samples.

Results

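The 10 genes described here act in oxidative stress and ferroptosis defence: Gpx4, Slc7a11, Gclc, Nfe2l2, Hmox1, Nqo1, Sod1, Sod2, Cat and Txnip. They were taken by symbol from the 32285 genes of the count tables, and all 10 were found. The values come from single-nucleus RNA-seq of retinas of rd10 mice (strain B6.CXB1-Pde6b-rd10/J), in which a mutation in the rod phosphodiesterase gene Pde6b makes rods degenerate and cones follow. Every library, control or treated, came from this strain, and the eyes had an injection into the vitreous at postnatal day 18 and were collected at postnatal day 20. The 3 control libraries (saline 1, 2 and 6) had saline and the 3 treated libraries (IL-27 4, 5 and 10) had 20 ng of recombinant IL-27, a cytokine of the IL-12 family that signals through STAT proteins. The labels do not say whether a library was 1 animal, so the p-values measure only the spread between these libraries. No wild-type or uninjected retina was analysed here.

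Ferroptosis is a form of cell death driven by iron-dependent peroxidation of membrane lipids. Cells hold it back by importing cystine through the system xc- antiporter, whose transport chain is Slc7a11, by making glutathione from it, and by spending glutathione in Gpx4, which reduces lipid peroxides. The transcription factor NRF2, encoded by Nfe2l2, switches on many of these genes under oxidative stress, and photoreceptors are known for a high oxygen use and for membranes rich in easily oxidised lipids.

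In the annotation used here (GENCODE M21, GRCm38) all 10 are protein-coding genes. Gpx4 lies at chr10:80047166-80056439 on the forward strand. Slc7a11 lies at chr3:49892526-50443614 on the reverse strand, and Gclc, the catalytic subunit of the first enzyme of glutathione synthesis, at chr9:77754535-77794485 on the forward strand. Nfe2l2 lies at chr2:75675513-75704641 on the reverse strand. Hmox1, which breaks down heme and frees its iron, and Nqo1, a quinone reductase, are among the NRF2 targets. They lie at chr8:75093621-75100589 (forward) and chr8:107388225-107403206 (reverse). The superoxide dismutases are Sod1, the cytosolic form, at chr16:90220754-90226329 (forward) and Sod2, the mitochondrial form, at chr17:13006846-13040063 (forward). Cat, the catalase that splits hydrogen peroxide, lies at chr2:103453849-103485160 (reverse), and Txnip, which binds and inhibits thioredoxin, at chr3:96557957-96561883 (forward).

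RefSeq promoter windows (GRCm38.p6, 250 bases before to 50 after a gene start) were at hand for 8 of the 10 genes, in 11 windows. NRF2 binds the antioxidant response element, and its core, TGACNNNGC read on both strands, was found in 2 of these genes, Nfe2l2 itself and Sod1. Of all 32851 windows of this length 12.39% held the core. The E-box CACGTG, read on both strands, was in none of the 11 windows and in 7.15% of all windows. The 3 stretches of 150 bases below are the parts of the Nfe2l2 and Sod1 windows that hold the core, in capitals, and the same length directly before the gene start of Slc7a11, the gene the treatment comparison turned on, which held no match. The Nfe2l2 stretch is chr2:75704764-75704913 (reverse strand) with the core 240 bases before the gene start, the Sod1 stretch chr16:90220612-90220761 (forward strand) with the core on the opposite strand 56 bases before the start, and the Slc7a11 stretch chr3:50443614-50443763 (reverse strand). A match is a match of letters and no measured binding.
Nfe2l2: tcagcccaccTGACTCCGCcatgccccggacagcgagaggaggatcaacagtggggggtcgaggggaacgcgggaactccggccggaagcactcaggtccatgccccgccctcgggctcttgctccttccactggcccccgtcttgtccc
Sod1: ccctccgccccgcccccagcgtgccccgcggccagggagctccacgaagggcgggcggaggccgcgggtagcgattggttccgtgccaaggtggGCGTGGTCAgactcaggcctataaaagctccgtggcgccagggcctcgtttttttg
Slc7a11: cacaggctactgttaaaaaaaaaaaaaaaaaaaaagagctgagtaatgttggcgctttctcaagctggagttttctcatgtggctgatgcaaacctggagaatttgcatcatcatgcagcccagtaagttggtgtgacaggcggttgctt

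The libraries held 8968 to 9965 barcodes and 36678332 to 48260748 UMIs (counted RNA molecules) each, and 51295 nuclei were summed in all, in 11 cell types named from marker genes. These were 15056 rods, 3330 cones, 10336 bipolar cells (BC), 12305 amacrine cells (AC), 485 horizontal cells (HC), 2051 retinal ganglion cells (RGC), and, outside the neurons, 5418 Muller glia, 293 astrocytes, 1501 microglia, 135 pericytes and 237 endothelial cells, and 148 nuclei with both rod and BC markers were set aside. Any 2 libraries shared 18 to 30 barcodes. The female transcript Xist was near 2000 CPM in saline 2 and IL-27 5 (2028 and 1999 CPM) and under 0.5 CPM in the other 4 libraries, so each group held 1 such library. The genes described here were kept out of the clustering, so that their order among cell types was not built into it. A level is given as CPM, the gene's UMIs per 1000000 UMIs of that cell type in that library, and only levels of the same gene are compared. Cell types were compared with their neighbours in the order of mean CPM over these same libraries. The tested values thus chose the pairs and their direction. The exact p-values of such steps describe how even a step was and are no separate support for the order. In such sums, fewer cells carrying a transcript and less transcript per cell cannot be told apart.

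**Figure D1:**
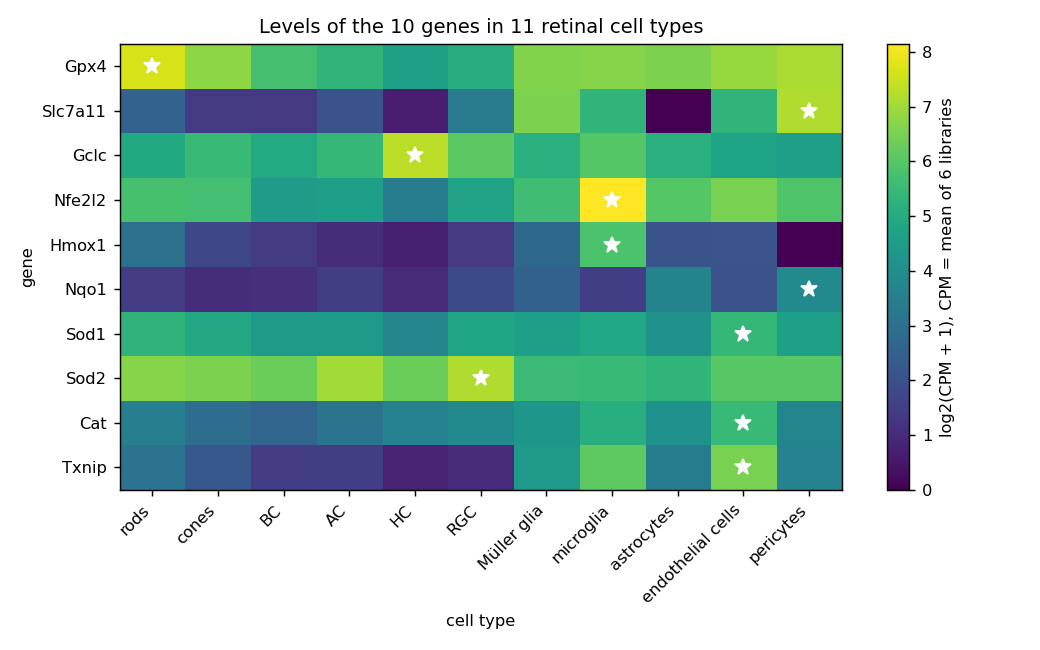
Heat map of log2(CPM + 1) of each gene (rows) in each of the 11 cell types (columns), from the mean CPM of the 6 libraries. A white star marks the highest cell type of a row: rods for Gpx4, HC for Gclc, microglia for Nfe2l2 and Hmox1 and RGC for Sod2, and colours are to be compared along a row only. The pericyte star of Slc7a11 rests on 1 library.

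Gpx4 was highest in rods. Its level there was 207, 195 and 207 CPM in saline 1, 2 and 6 and 197, 176 and 216 CPM in IL-27 4, 5 and 10, and the groups overlapped. The rod mean of 199.7 CPM was followed by 137 CPM in pericytes, 117 CPM in endothelial cells, 107 CPM in cones and 101 CPM in microglia. Rods lay above pericytes in 5 of 6 libraries (mean log2 difference 0.81 ± 0.91 SD, exact sign-flip permutation test, two-sided, p = 0.094), and pericytes carried only 56 Gpx4 UMIs in all. Cones and microglia did not differ beyond their spread, with cones higher in 5 of 6 libraries (0.11 ± 0.20 SD, exact p = 0.34). The lowest level was in HC, at 23.9 CPM. The 3 genes whose mean log2(CPM + 1) followed that of Gpx4 most closely over the 11 cell types were Sap30l, Rnf7 and Vps72 (r = 0.97, 0.96 and 0.96), from 15172 genes searched.

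Nfe2l2 and its target Hmox1 were both highest in microglia. Nfe2l2 stood at 294, 287 and 258 CPM in the microglia of saline 1, 2 and 6 and at 323, 291 and 240 CPM in those of IL-27 4, 5 and 10. Every microglial value lay above the endothelial value of the same library, whose mean of 89.1 CPM was the next (log2 difference 1.76 ± 0.54 SD, 6 of 6 libraries). The exact sign-flip p was 0.03125, the smallest that 6 libraries allow, and 0.1645 after Benjamini-Hochberg adjustment over the 100 neighbouring pairs of the 10 genes. Neither value allows for the choice of the pairs from the same 6 libraries. The other types lay between 10.1 CPM in HC and 63.2 CPM in astrocytes.

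Hmox1 was far less even. Microglia held 23.9, 27.1 and 122 CPM with saline and 26.3, 69.5 and 67.5 CPM in the IL-27 libraries, with saline 6 highest and the groups overlapping. The next type, rods, had a mean of 7.05 CPM, and microglia lay above rods in 6 of 6 libraries (log2 difference 2.65 ± 1.24 SD, exact p = 0.03125, adjusted p = 0.1645). The 195 microglial Hmox1 UMIs lay in 88 of 1501 nuclei, with up to 19 in 1 nucleus, against 1034 Nfe2l2 UMIs in 607 nuclei with at most 8 in 1 nucleus. Over cell types the nearest patterns were those of Apoc1, Mdm2 and Snap29 for Hmox1 (r = 0.98, 0.97 and 0.96) and of Tm9sf2, Atf1 and Derl2 for Nfe2l2 (r = 0.98 for each of them). No gene of the set besides Nfe2l2 and Hmox1 had its highest mean in microglia. Nqo1, also an NRF2 target, was at 1.88 CPM there, from 8 UMIs. Its highest means were 14.05 CPM in pericytes from 6 UMIs and 11.8 CPM in astrocytes from 14 UMIs, and of the types with over 100 Nqo1 UMIs Muller glia (4.83 ± 0.58 CPM, SD, n = 6) lay above AC (1.84 ± 0.75 CPM).

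Gclc was highest in horizontal cells, the laterally connecting neurons of the outer plexiform layer. The HC level was 151, 128 and 173 CPM in saline 1, 2 and 6 and 146, 196 and 148 CPM in IL-27 4, 5 and 10, with no separation by treatment. RGC followed at 67.8 CPM, and HC lay above them in 6 of 6 libraries by a log2 difference that hardly varied, 1.19 ± 0.11 (SD, exact p = 0.03125, adjusted p = 0.1645). RGC and microglia (62.3 CPM) were not separated, with RGC higher in 4 of 6 libraries (exact p = 0.28). Among the 14 AC clusters, Gclc was highest in the 1083 nuclei led by Kcnh1, Tll1 and Sec14l5, at 80.3 ± 10.0 CPM (SD, n = 6), against 44.8 CPM in the next cluster and 28.1 CPM in the lowest. That cluster lay above the next in 6 of 6 libraries. Within the AC and BC clusters, of the genes described here only Gclc and Sod2 met this, both in AC. The share over all genes was not computed. The nearest patterns to that of Gclc over cell types were those of Dnah7a, Sept6 and the HC transcription factor Onecut1 (r = 0.92, 0.90 and 0.89).

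**Figure D2:**
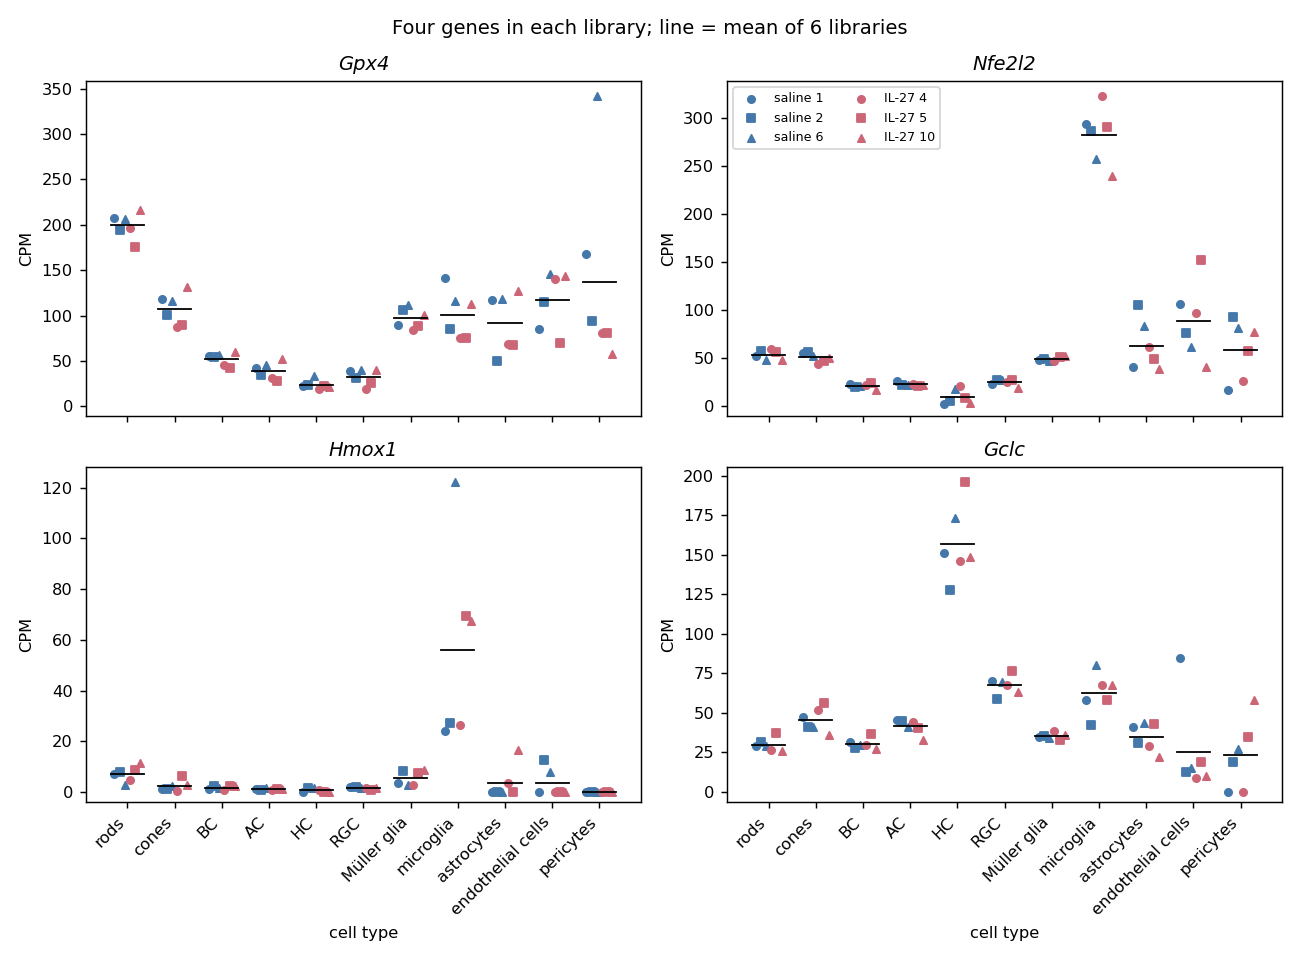
CPM (vertical axes) of Gpx4, Nfe2l2, Hmox1 and Gclc in the 11 cell types (horizontal axes), 1 point per library, blue for saline and red for IL-27, with a line at the mean of the 6 libraries. Microglia stand above the other types for Nfe2l2 (240 to 323 CPM) and Hmox1, HC for Gclc (128 to 196 CPM). In these highest types the blue and red points of the 3 genes overlap, while those of Nfe2l2 in cones and of Gpx4 in HC and pericytes do not.

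The 2 superoxide dismutases had different orders. Sod2 was highest in RGC and then in AC, while the other inner neurons, BC and HC, lay below both photoreceptor types. RGC held 153, 145 and 143 CPM in the controls and 134, 147 and 144 CPM in the IL-27 libraries. RGC lay above AC (mean 129 CPM) by a small but even step (log2 difference 0.16 ± 0.06 SD, 6 of 6 libraries, exact p = 0.03125, adjusted p = 0.1645), and AC above rods (101 CPM) by 0.35 ± 0.08, also in 6 of 6 libraries. Muller glia (45.7 CPM) and microglia (44.5 CPM) were near the bottom. Among AC clusters Sod2 ran from 92.0 ± 12.3 CPM in the cluster led by Gm38505, Pde11a and Chat, the acetylcholine-synthesising enzyme of starburst cells, to 202 ± 28.4 CPM in the 354 nuclei led by Pantr1, Pou3f3 and Ofcc1, which lay above the next cluster in 6 of 6 libraries. Sod1 was at 38.4 ± 3.84 CPM in rods and 29.0 ± 4.38 CPM in cones, and rods lay above cones in 6 of 6 libraries (log2 difference 0.40 ± 0.18 SD, exact p = 0.03125, adjusted p = 0.1645). The higher Sod1 mean of endothelial cells (42.0 CPM) came from 26 UMIs and ranged from 0 to 92.3 CPM.

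Cat and Txnip shared the vascular and immune cells. Txnip was at 117, 89.1 and 92.3 CPM in the endothelial cells of saline 1, 2 and 6 and at 35.2, 38.1 and 165 CPM in those of IL-27 4, 5 and 10. In microglia it held 76.2, 75.6 and 71.1 CPM with saline and 74.1, 57.0 and 55.0 CPM in the IL-27 libraries. Endothelial cells and microglia were not separated (4 of 6 libraries, exact p = 0.62), while microglia lay above the next type, Muller glia at 19.9 CPM, in 6 of 6 (log2 difference 1.75 ± 0.53 SD, exact p = 0.03125, adjusted p = 0.1645). RGC and HC were near the floor, with 19 and 3 Txnip UMIs. Cat had the same first 3 types, at 43.8 CPM in endothelial cells, 33.5 CPM in microglia and 18.8 CPM in Muller glia, and microglia lay above Muller glia in 6 of 6 libraries (0.77 ± 0.45 SD, exact p = 0.03125, adjusted p = 0.1645). The nearest patterns were Bst2, Mcl1 and Gnai2 for Txnip (r = 0.98 for each), Cdc42se2, Prkch and Dera for Cat (r = 0.94 for each), Cops6, Tmsb10 and Anapc11 for Sod1 (r = 0.95, 0.94 and 0.94) and Las1l, R3hdm1 and Ccser1 for Sod2 (r = 0.95, 0.95 and 0.94). Between the 10 genes themselves Nfe2l2 and Txnip were closest over the 11 types (r = 0.88) and Gpx4 and Gclc farthest apart (r = -0.72). These correlations are descriptions over 11 types that share libraries.

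Slc7a11 was uneven between cell types, libraries and nuclei. It was seen in Muller glia (2425 UMIs) and, at 39.2 CPM, in microglia (130 UMIs), with 9.07 CPM in RGC, under 6 CPM in rods, AC, cones, BC and HC and no UMI in 293 astrocytes, which allows up to 3 UMIs. Its highest mean, 142 CPM in pericytes, came from IL-27 10 alone: that library held 76 of the 81 UMIs, 34 of them in 1 nucleus, and the values were 0, 18.7 and 13.7 CPM in the controls and 81.1, 0 and 739 CPM in the IL-27 libraries. In endothelial cells 21 of 23 UMIs lay in 1 nucleus of IL-27 10. Markers of the retinal pigment epithelium were present in the pericyte group, whose leading genes include Rpe65. Their summed level was 553, 74.9 and 4995 CPM with saline and 270.3, 81.3 and 379 CPM in the IL-27 libraries, and their part in the Slc7a11 values was not tested. The nearest patterns over cell types were Cxxc1, Zfp703 and Met for Slc7a11 (r = 0.92, 0.92 and 0.90) and Fjx1, Zic1 and Daam2 for Nqo1 (r = 0.97, 0.96 and 0.96).

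The treatment comparison asked whether any of the 10 genes differed between IL-27 and saline libraries within a cell type. None did at an adjusted p under 0.05: edgeR called 0 of the 68 gene and cell type pairs that passed the filter on low counts, of which 2 had an unadjusted p under 0.05, and DESeq2, which tested 108 pairs, also called 0, with 2 under 0.05. With edgeR few genes of any kind were called. The edgeR share was 0.00732% of 13666 genes in rods, 0.00588% of 17012 in AC, 0.0285% of 14053 in Muller glia and 0% in each of the other 8 types. The DESeq2 share over all genes is not given here, so the 0 of DESeq2 has no such share beside it. Of the 10 genes, 9 passed the filter in rods, 6 in cones, 9 in BC, 10 in AC, 4 in HC, 7 in RGC, 10 in Muller glia, 9 in microglia, 2 each in astrocytes and endothelial cells and 0 in pericytes. The standard errors ran from 0.06 (Sod2 in AC) to 0.60 (Slc7a11 in microglia) on the log2 scale. With edgeR both pairs with an unadjusted p under 0.05 were in Muller glia, Slc7a11 and Cat, and with DESeq2 they were Slc7a11 in Muller glia and Slc7a11 in pericytes, the latter carried by IL-27 10. Of the 108 pairs with a UMI, 10 had groups that did not overlap, 8 of them lower with IL-27. Such a split has an exact permutation p of 0.1 with 3 against 3 libraries, and 10 of 108 is close to that share. The observed share over all genes was not computed, so neither the 10 nor the 8 is read as a result. A lack of overlap named below is therefore no call.

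**Figure D3:**
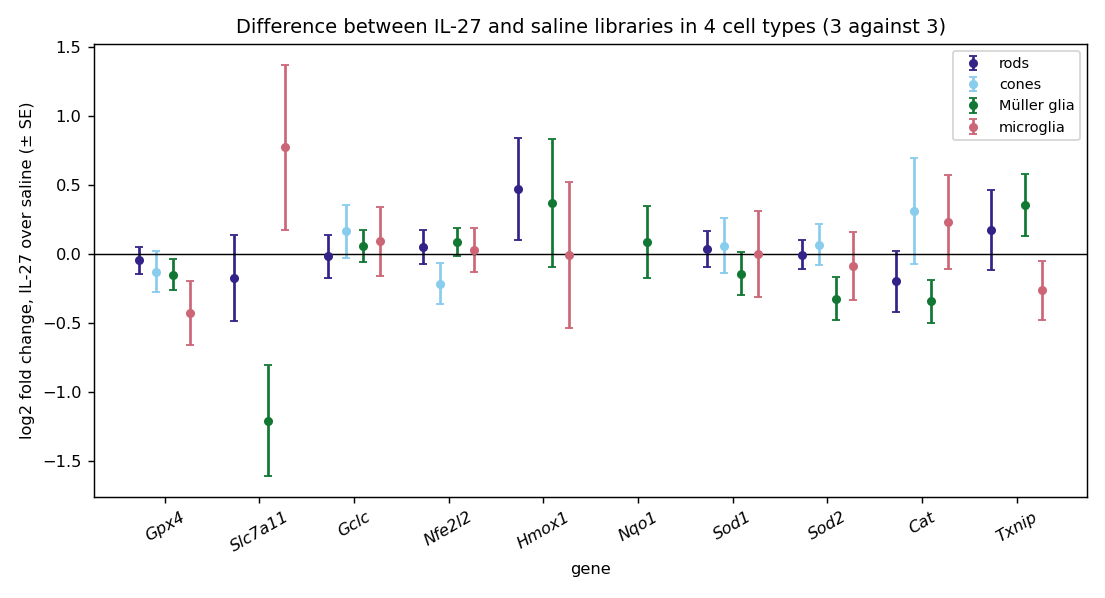
Log2 fold change of IL-27 over saline (vertical axis, point with SE, edgeR, 3 against 3 libraries) of the 10 genes in rods, cones, Muller glia and microglia, for pairs that passed the filter on low counts. Slc7a11 in Muller glia (-1.21) and in microglia (0.77) lie farthest from 0, and none of the points passed the adjusted threshold.

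In Muller glia Slc7a11 was lower with IL-27 in 2 of 3 libraries and level with the lowest control in the third. It stood at 128, 150 and 106 CPM in saline 1, 2 and 6 and at 38.3, 24.4 and 104 CPM in IL-27 4, 5 and 10. The groups did not overlap, but IL-27 10 lay just under saline 6. The log2 fold change was -1.21 (SE 0.40, edgeR unadjusted p = 0.014, adjusted p = 0.39), and the exact permutation test gave p = 0.1, the smallest that 3 against 3 allows. Without IL-27 10 the fold change was -1.9955 (SE 0.20, edgeR adjusted p = 0.00046), and without a filter on low counts it was -1.22 (adjusted p = 0.0047).

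Most of this Slc7a11 came from a single cluster. When Muller nuclei were clustered again, the cluster with the highest level of Fbln1, Frmpd4, Reln and Csmd3 held 552 of its 669 nuclei from saline libraries. These genes were known from earlier results on the same libraries to be lower with IL-27, so the excess of saline nuclei follows from the choice and is not a result here. The cluster made up 20.1, 21.9 and 11.2% of Muller nuclei in saline 1, 2 and 6 and 1.87, 0.837 and 12.9% in IL-27 4, 5 and 10. In the saline libraries Slc7a11 was at 754 ± 132 CPM in the cluster (SD, n = 3) and at 22.1 ± 4.95 CPM in the other Muller nuclei, higher in 3 of 3 libraries. The cluster held 86.3, 85.2 and 84.8% of all Muller Slc7a11 UMIs in the controls and 5.97, 14.9 and 65.0% in the IL-27 libraries, so IL-27 10 stood apart from the other treated libraries in the cluster's share and in Slc7a11 alike. In the clustering of all nuclei, the 661 nuclei led by Fbln1 also had Slc7a11 among their 10 leading genes, although it took no part in the clustering.

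Muller markers were low in the cluster. The nuclei led by Fbln1 were named Muller glia because 7 of 10 Muller markers met the naming rule, but 9 of 10 Muller markers were lower there than in the other Muller nuclei in all 3 saline libraries. Rlbp1, a retinoid-binding protein of Muller glia, was at 50.5 against 371 CPM, the potassium channel Kcnj10 at 9.12 against 106 CPM, and Aqp4, a water channel, at 140.2 against 567 CPM. Its leading genes were Fbln1 (1460 against 4.89 CPM), Slc6a13 (623 against 0.591 CPM), the extracellular protein Optc (606 against 5.46 CPM) and others, of which Fbn2, Col18a1 and Sned1 also stood near 100 CPM in the other Muller nuclei (106, 103 and 99.5 CPM). Without doublet removal, 657 of its 667 summed nuclei fell into the cluster named pericytes, although the pericyte markers Kcnj8 and Abcc9 were at 0 CPM in it, and of 7 pericyte markers 1, Notch3, was higher and 2 were lower than in the other Muller nuclei in all 3 libraries. The Muller values are therefore given with and without it.

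Without the cluster the Muller level of Slc7a11 was not lower with IL-27. It was 20.7, 27.6 and 17.9 CPM in saline 1, 2 and 6 and 36.5, 20.9 and 40.6 CPM in IL-27 4, 5 and 10. The groups overlapped, with IL-27 5 among the saline values, and the log2 fold change turned to 0.55 (SE 0.23, edgeR unadjusted p = 0.036, adjusted p = 0.95, exact permutation p = 0.2). Without doublet removal, where the cluster was not named Muller glia, it was 0.57 (SE 0.23, adjusted p = 0.97).

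**Figure D4:**
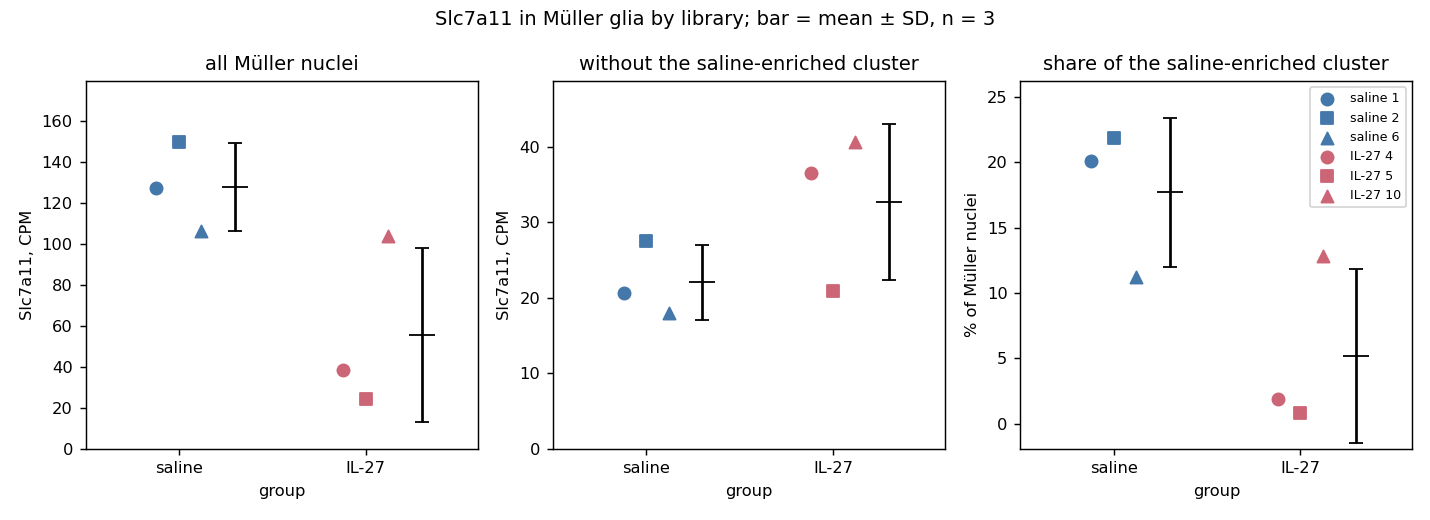
Slc7a11 in Muller glia (CPM) over all Muller nuclei on the left and without the saline-enriched cluster in the middle, and the cluster's share of Muller nuclei (%) on the right, 1 point per library with mean ± SD (n = 3). IL-27 10, with 12.9% of its Muller nuclei in the cluster, sits beside saline 6 (11.2%) in the left and right panels, and without the cluster the saline libraries lie at 17.9 to 27.6 CPM and the IL-27 libraries at 20.9 to 40.6 CPM.

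The other 9 genes differed far less between the cluster and the rest. In the 3 saline libraries the mitochondrial dismutase Sod2 was at 80.0 CPM in the cluster and 46.0 CPM in the other Muller nuclei, and Sod1 at 30.1 and 23.5 CPM, each higher in 3 of 3 libraries. Gclc went the other way, at 22.3 against 37.1 CPM and lower in 3 of 3 libraries. Gpx4 (128 against 99.7 CPM, higher in 2 of 3), Nfe2l2 (50.4 against 48.1 CPM), Nqo1 (5.02 against 4.64 CPM), Txnip (15.7 against 18.5 CPM), Cat (15.7 against 22.3 CPM) and Hmox1 (1.87 against 5.50 CPM) showed no common direction. Of the 63 further genes of the pathway list, 34 were higher and 10 lower in the cluster in all 3 saline libraries. Among genes at 10 CPM or more over all Muller nuclei these shares were 55.8% and 20.9% of 43 pathway genes and 34.5% and 32.6% of all 9986 genes, and the difference between the shares was not tested. Among the 34 higher genes were Gpx3, the secreted glutathione peroxidase (25.8 against 1.35 CPM), Sod3, the extracellular dismutase (18.9 against 0.524 CPM), and the glutathione reductase Gsr (49.3 against 25.3 CPM). Of these, Gpx3 and Sod3 lay under 10 CPM over all Muller nuclei. Slc3a2, the heavy chain that pairs with Slc7a11, was among the 10 lower (133 against 239 CPM).

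**Figure D5:**
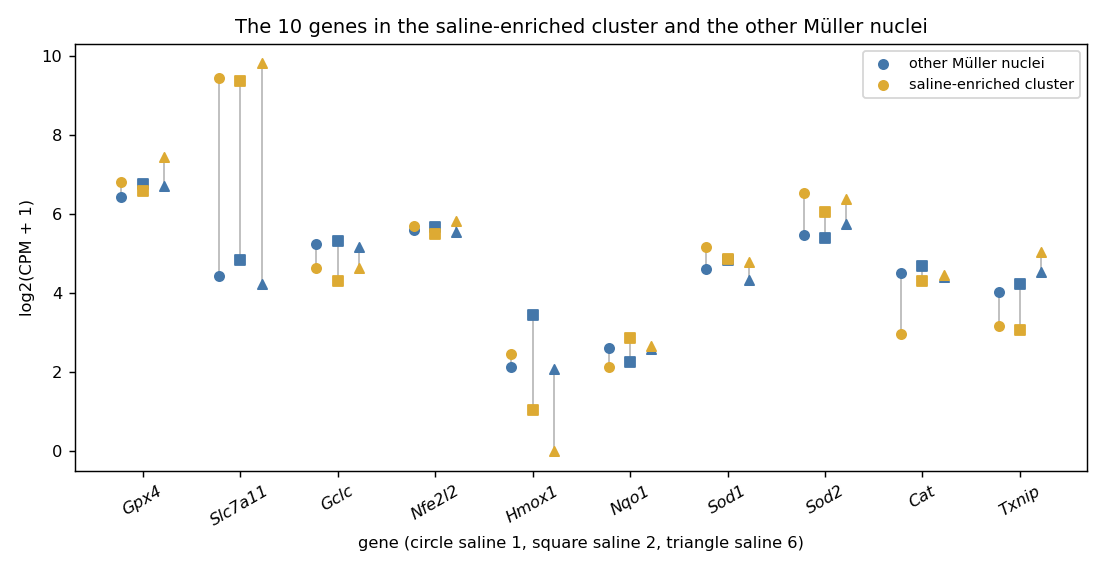
Log2(CPM + 1) of the 10 genes in the saline-enriched cluster (yellow) and in the other Muller nuclei (blue) of the 3 saline libraries, a grey line joining the values of 1 library. Slc7a11 is the only gene of the 10 with a long upward gap in every library (754 against 22.1 CPM on average), and the low points of Hmox1 rest on few UMIs.

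Cat was the other Muller value with an unadjusted p under 0.05. It was at 19.4, 23.7 and 20.4 CPM in saline 1, 2 and 6 and at 18.0, 15.8 and 15.4 CPM in IL-27 4, 5 and 10, without overlap, and its log2 fold change was -0.34 (SE 0.15, edgeR unadjusted p = 0.0498, adjusted p = 0.55). Its size was similar without the cluster, where the levels were 21.8, 24.8 and 20.3 CPM against 18.0, 15.97 and 15.9 CPM, and the fold change -0.43 (SE 0.16, unadjusted p = 0.020, adjusted p = 0.95). Muller Sod2 had a log2 fold change of -0.32 (SE 0.15, adjusted p = 0.59) over all Muller nuclei and -0.20 (SE 0.16) without the cluster. For Txnip it was 0.35 (SE 0.22, adjusted p = 0.72) and 0.17 (SE 0.20). With single libraries left out, Sod2 reached -0.19 without IL-27 5 and Txnip 0.21 without saline 1 and 0.58 without saline 6. Over all alternatives Sod2 ran from -0.47 to -0.19. Gpx4, Gclc, Nfe2l2, Hmox1, Nqo1 and Sod1 lay between -0.15 and 0.37 over all Muller nuclei.

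In microglia the widest difference was again Slc7a11, in the opposite direction and with a wide error. It was at 5.98, 15.5 and 66.7 CPM with saline and at 24.7, 42.5 and 80.0 CPM in the IL-27 libraries. The groups overlapped, since saline 6 lay above IL-27 4 and 5, and the log2 fold change was 0.77 (SE 0.60, adjusted p = 0.9999). The value moved with single libraries in both directions: it was 2.16 without saline 6 (SE 0.56, edgeR unadjusted p = 0.0022, adjusted p = 0.99974), 0.21 without saline 1, 0.37 without IL-27 10 and 0.51 without saline 2. The 130 UMIs lay in 65 of 1501 nuclei. Microglial Gpx4 was at 142, 85.3 and 116 CPM in the controls and at 75.7, 75.7 and 112 CPM in the IL-27 libraries, with overlapping groups (log2 fold change -0.42, SE 0.23, adjusted p = 0.9999, and -0.23 without saline 1). Over all alternatives this fold change ran from -0.59 to -0.19. Rod transcripts, which free RNA can carry into other nuclei, summed to 1524, 1268 and 1176 CPM in the microglia of saline 1, 2 and 6 and to 1016, 556 and 1599 CPM in those of IL-27 4, 5 and 10. IL-27 4 and 5 were thus low in both, and the part of free rod RNA in the Gpx4 value was not tested. Transcripts of ribosomal protein genes summed to 15014, 11617 and 18126.5 CPM in the microglia of the controls. In those of IL-27 4, 5 and 10 they summed to 10418.5, 11882 and 16515 CPM, and their part was not tested either. Txnip (-0.26, SE 0.21), Hmox1 (-0.01, SE 0.53) and Nfe2l2 (0.03, SE 0.16) were also within their errors or close to them in microglia.

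In photoreceptors none of the 10 genes came near the threshold. In rods the log2 fold changes ran from -0.20 (Cat, SE 0.22) to 0.47 (Hmox1, SE 0.37, adjusted p = 0.999), and Gpx4, the gene with the highest rod level relative to other types, gave -0.04 (SE 0.10). Rod Hmox1 was at 7.13, 7.71 and 2.87 CPM with saline and at 4.66, 8.56 and 11.4 CPM in the IL-27 libraries, with overlap. Its fold change was 0.09 without IL-27 10, 0.17 without saline 6, 0.72 without saline 2 and 0.75 without IL-27 4. In cones the lowest value was that of Nfe2l2, at 55.4, 56.3 and 52.9 CPM in the controls and 44.0, 47.1 and 50.7 CPM in the IL-27 libraries. These groups did not overlap, but the log2 fold change was only -0.21 (SE 0.15, adjusted p = 0.9999). Cone Gpx4 (-0.13, SE 0.15), Gclc (0.17, SE 0.19), Sod1 (0.06, SE 0.20), Sod2 (0.07, SE 0.15) and Cat (0.31, SE 0.39) were smaller than their errors.

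In the inner neurons none of the Gpx4 values passed the threshold. In RGC it was at 39.1, 31.4 and 39.7 CPM with saline and at 19.1, 26.1 and 40.7 CPM in the IL-27 libraries (log2 fold change -0.41, SE 0.21, adjusted p = 0.99998), where IL-27 10 was the highest of all 6. The fold change was -0.69 without IL-27 10 and -0.17 without IL-27 4. Rod transcripts in the same RGC sums stood at 322, 298 and 266 CPM in the controls and at 281, 125 and 356 CPM in the IL-27 libraries. Transcripts of ribosomal protein genes stood there at 3941, 3804 and 5063 CPM in the controls and at 3170, 3368 and 4640 CPM in the IL-27 libraries. IL-27 4, with the lowest Gpx4, had the lowest ribosomal value, while its rod value lay among the controls. The part of either in the Gpx4 value was not tested. In HC Gpx4 was at 22.4, 24.1 and 34.0 against 19.0, 22.2 and 21.5 CPM, without overlap (-0.35, SE 0.29, adjusted p = 0.98, -0.16 without saline 6, and from -0.50 to -0.16 over all alternatives). In BC its fold change was -0.14 (SE 0.11), with -0.04 without IL-27 5 and -0.29 without IL-27 10. In AC Sod2 was the most precisely measured value, with a fold change of -0.01 (SE 0.06). Astrocyte Nfe2l2 gave -0.60 (SE 0.40, adjusted p = 0.98) from 75 UMIs, and -0.34 without saline 2, with a range from -0.88 to -0.23 over all alternatives.

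Whether the effect of IL-27 differed among rods, cones, Muller glia and microglia was tested by the interaction of cell type and treatment. None of the 10 genes passed (0.291% of 15807 genes did). Slc7a11 came closest (edgeR unadjusted p = 0.00038, adjusted p = 0.097), with its effect 0.96 lower in Muller glia and 1.28 higher in microglia than in rods on the log2 scale. It passed without saline 6 (adjusted p = 0.00040), without IL-27 10 (adjusted p = 0.019) and without the filter on low counts. It did not pass without saline 1, saline 2, IL-27 4 or IL-27 5 (adjusted p = 0.68, 0.56, 0.16 and 0.61) or without the saline-enriched cluster (unadjusted p = 0.31, edgeR).

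The wider pathway was described with 63 further genes. Of these 54 reached 10 CPM in at least 1 cell type, and 20 were highest in microglia, 14 in astrocytes and 9 in endothelial cells, of which 8, 5 and 3 lay above the next type in 6 of 6 libraries. These are 37.0, 25.9 and 16.7% of the 54, against 21.5, 7.61 and 12.5% of all 15172 genes at this level. The counts above the next type in 6 of 6 libraries are 14.8, 9.26 and 5.56% of the 54, against 10.2, 2.33 and 3.32% of all genes. Over any type, 33.3% of the 54 and 41.0% of all genes lay above the next in 6 of 6. None of these differences was tested. The ferritin chains Fth1 and Ftl1, which store iron, stood at 1403 ± 482 and 922 ± 264 CPM in microglia (SD, n = 6) against 550.1 and 271 CPM in rods, the next type, and Bach1, a repressor of Hmox1, at 120.3 ± 22.6 CPM. Sat1, a polyamine acetylase, was at 770.1 ± 134 CPM in microglia, and Acsl4, which loads membranes with oxidisable fatty acids, at 149 ± 15.01 CPM. Ceruloplasmin, Cp, an oxidase of exported iron, stood at 7279 ± 1644 CPM in astrocytes and 2873 ± 378 CPM in Muller glia, and transferrin, Trf, at 1191 ± 345 and 193 ± 22.7 CPM. Slc40a1, the iron exporter ferroportin, was highest in endothelial cells (186 ± 73.3 CPM), as was the transferrin receptor Tfrc (143 ± 39.1 CPM). Prdx6, a peroxiredoxin that reduces phospholipid peroxides, was at 387 ± 69.2 CPM in astrocytes and 329 ± 48.5 CPM in Muller glia.

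No gene of the pathway list was called between treatments in rods, cones, Muller glia or microglia. edgeR called 0 of 193 gene and cell type pairs, with 9 at an unadjusted p under 0.05, and DESeq2 called 0 of 249, with 7. For DESeq2 no share over all genes is given beside this 0. With edgeR the median log2 fold change was 0.01 over 54 genes in rods, 0.01 over 43 in cones, 0.01 over 58 in Muller glia and 0.03 over 38 in microglia, and over all genes tested it was 0.00, 0.00, 0.01 and 0.00. In Muller glia 5 of 58 genes, 8.62%, had an unadjusted p under 0.05, close to the 9.14% of all genes there.

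The genes with the smallest unadjusted p in each direction are given as values. Gpx3 in rods was at 2.97, 2.83 and 3.50 CPM with saline and 0.259, 0.744 and 0.948 CPM in the IL-27 libraries (log2 fold change -2.14, SE 0.48, adjusted p = 0.999), from 40 UMIs. In Muller glia it was at 3.42, 7.95 and 3.97 against 0.857, 0.779 and 2.37 CPM (-1.92, SE 0.52, adjusted p = 0.28), and this is the gene that stood at 25.8 CPM in the saline-enriched cluster. The zinc and iron importer Slc39a14 was in Muller glia at 38.5, 39.4 and 41.3 CPM in the controls and 43.7, 57.9 and 85.0 CPM in the IL-27 libraries (0.66, SE 0.20, adjusted p = 0.33). Its groups did not overlap, and without the cluster its fold change was 0.52 (SE 0.21). Tfrc in microglia was at 16.4, 21.3 and 13.3 against 31.3, 47.7 and 20.0 CPM (1.03, SE 0.38, adjusted p = 0.9999), and the mitochondrial peroxiredoxin Prdx3 at 19.4, 23.3 and 22.2 against 11.5, 8.29 and 14.99 CPM (-0.97, SE 0.41, adjusted p = 0.9999). Slc3a2 in rods was at 66.0, 61.9 and 65.9 against 73.1, 78.5 and 80.5 CPM (0.26, SE 0.10, adjusted p = 0.999), without overlap. The log2 fold changes of the others named by the rule were 0.39 (Gpx1) and -0.45 (Glrx) in rods, 0.45 (Gclm), 0.22 (Por), -0.26 (Prdx6) and -0.41 (Dhodh) in cones, 0.32 (Sat1) and -0.46 (Mgst1) in Muller glia, and 0.43 (Por) and -0.41 (Trf) in microglia.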

How the data were processed

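The authors deposited whole, unnormalized UMI counts per gene and barcode, made with Cell Ranger (9.0.1 per the submitters' processing notes, 8.0.1 per the matrix headers). The genome build is not given in the sources used here, and 32158 of 32285 gene identifiers were found in GENCODE M21. Barcodes were kept above 500 UMIs, from 200 detected genes upward and below a mitochondrial share of 5%, and the nuclei with the highest Scrublet scores (scanpy 1.11.5) were removed as doublets per library, at an expected rate of 8% less the share within 1 cluster. Nuclei were clustered (2000 variable genes without the 10 genes and the pathway list, 25 components, 20 neighbours, Louvain at resolution 0.25, igraph 0.11.9). Clusters were named from marker lists, each marker in at least 10% of nuclei and at least 3 per class, by the class with the highest relative marker level rather than, as planned, the most markers, which decided the astrocytes (8 Muller and 6 astrocyte markers met). Nuclei within 2 median absolute deviations of log UMI were summed per library and type. Sums were tested with edgeR 4.0.16 (quasi-likelihood, TMM, filter at 10 counts, Benjamini-Hochberg over all genes of a type, called at an adjusted p under 0.05), the interaction with library as a block. The edgeR test gives no SE, so each SE here is the absolute log2 fold change divided by the square root of the F statistic. Exact tests used log2(CPM + 1) and are two-sided. On simulated sums with 200 genes changed by 1.5 on the log2 scale, larger than those of the 10 genes with all libraries and the filter, edgeR recovered 186 in rods, 179 in cones, 177 in Muller glia and 162 in microglia, with 15 to 18 false calls per type; smaller changes were not simulated. The 10 genes and all lists were chosen with earlier results of these data known. Pathway genes were named as up to 3 per direction past the threshold or, with none, 2 per direction by unadjusted p, and likeness as the 3 highest Pearson r among genes at 10 CPM or more. Alternatives were DESeq2, its size factors, no filter or a filter at 30 counts, all nuclei, no doublet removal, a 1% mitochondrial limit, resolution 0.5, the genes kept in clustering, Muller glia without the saline-enriched cluster, and each library left out.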

Additional observations from a re-analysis of the deposited data

How the results depend on the processing

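The count of 0 calls among the 10 genes became 3 without a filter on low counts (Slc7a11 in Muller glia, -1.22, in endothelial cells, 3.98, and in pericytes, 4.54, the last 2 from few nuclei of IL-27 10) and 1 without IL-27 10 (Slc7a11 in Muller glia, -1.9955), and ranged from 0 to 1 when each library was left out. The count of pathway genes in 4 types became 2 without the filter (Gpx3 and Slc39a14 in Muller glia) and stayed at 0 with each library left out. The count of genes whose effect differed among 4 cell types became 1 without the filter, without saline 6 and without IL-27 10, each time Slc7a11, a range of 0 to 1 over left-out libraries. Muller Slc7a11 changed sign to 0.57 without doublet removal and to 0.55 without the saline-enriched cluster, both of which take that cluster's nuclei out of Muller glia. The genes whose highest type lay above the next in 6 of 6 libraries numbered 4 of the 10 and were 4 to 6 under the alternatives. Of all 15172 genes at 10 CPM or more in at least 1 type, 41.0% met the same rule, so the 4 are near the share of all genes. Of all 68 gene and type pairs, 30 kept their sign in every alternative run, and of the 14 chosen for an unadjusted p under 0.25, 13 did. The alternatives reuse the same libraries, and the 14 were chosen by their p in the same data. Kept signs among them largely follow from that choice and are no separate evidence of an effect. The share over all genes was not computed. No paired analysis was possible because the groups share no replicate number. Depth limits the rarer types most: pericytes, endothelial cells and astrocytes held 135 to 293 nuclei, and 0 to 2 of the 10 genes passed the filter there.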
